A study of Rattus norvegicus with 8 samples.

Results

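Spliceosome and splicing factor genes were followed in the axonal and somatic RNA of cultured rat sensory neurons. They were taken by symbol from the authors' somatic comparison table, as every gene whose symbol starts with Snrp, Sf3a, Sf3b, Srsf, Prpf or U2af, which gave 45 of 17320 genes. A transcript in the count files was matched to 44 of them, and Srsf11 was left with the authors' own values. The 45 genes fall into 7 Sm core proteins, 4 other proteins of the U1 and U2 particles, 2 U2AF small subunits, 3 SF3A and 6 SF3B subunits, 12 Prpf proteins and 11 SR proteins.

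The libraries came from dorsal root ganglion neurons of rat embryos at embryonic day 15, which received a lentiviral short hairpin RNA at plating and were kept in microfluidic chambers, where axons grow into a compartment of their own, for 7 days. The groups were axonal RNA with a hairpin against the RNA-binding protein Pum2 (axonal shPum2), axonal RNA with a control hairpin (axonal shControl), somatic shPum2 and somatic shControl, with 2 libraries each. Nothing in the labels says that these were separate cultures, so p-values measure the spread between these libraries, which may be technical. Axonal RNA went through an ultra-low input kit and somatic RNA through a standard kit, so the effects of kit and compartment cannot be told apart, and the labels give the somatic source as cell bodies together with axons.

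The spliceosome removes introns in the nucleus. Its small nuclear ribonucleoproteins (snRNPs) each hold a small RNA wrapped by a ring of Sm proteins, a ring that is put on in the cytoplasm by the SMN complex before the particle enters the nucleus. U1 and U2AF mark the ends of an intron, U2 with SF3A and SF3B takes the branch point, the Prpf proteins belong largely to the U4/U6 and U5 particles and the later catalytic steps, and SR proteins (Srsf) bind exons and help to choose splice sites. The mRNAs of these nuclear proteins are translated in the cytoplasm, where they can be detected in either compartment.

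Totals were 11641947 to 16131611 counts in axonal libraries and 16725876 to 25821766 in somatic libraries, and each of the 44 genes had at least 1 count in all 8. Pum2 was at 1.46 and 7.07 counts per 1e6 counts of the library (CPM) in axonal shPum2 and at 3.25 and 0.443 CPM in axonal shControl libraries. In the soma it was at 38.2 and 36.5 CPM with shPum2, against 164 and 160 CPM with shControl (log2 -2.13, adjusted p = 0.0247, edgeR quasi-likelihood test with Benjamini-Hochberg adjustment). In such bulk RNA, fewer cells of a type and less RNA per cell cannot be told apart. The summed CPM of 12 sensory neuron markers was 15600 to 31130 in axonal and 28960 to 33950 in somatic libraries. Nefm alone had 10290 to 23710 CPM in axonal and 8756 to 10070 CPM in somatic libraries. Of the 12 markers, 2 were higher and 6 lower in axonal RNA, beside 13.7% and 26.5% of all genes tested. Of 10 macrophage and blood markers, 5 were higher in axonal RNA, with sums of 2020 and 81.0 CPM in axonal shPum2, 1616 and 831 CPM in axonal shControl and 64.0 to 254.5 CPM in somatic libraries. Sums over 10 fibroblast markers were 70.7 to 790 CPM in axonal and 1795 to 8990 CPM in somatic libraries. Glial markers summed to 70.2 to 192.5 CPM in axonal and 41.3 to 98.9 CPM in somatic libraries, with Gfap and Cdh19 at 0 in every axonal library, and endothelial and mural markers to 3.84 to 17.3 CPM in axonal and 52.7 to 214 CPM in somatic libraries, with Cdh5 and Kdr at 0 in every axonal library, while Pecam1 of that list was higher in axonal RNA (adjusted p = 0.0477, edgeR with Benjamini-Hochberg), at 14.4 and 0.434 CPM in axonal shPum2, 0.171 and 2.73 CPM in axonal shControl and 0.431 to 0.697 CPM in somatic libraries.

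The genes on which the compartment comparison turns are shown by the 150 bases before their annotated start, taken from RefSeq (GRCr8), 5′ to 3′ on the strand of the gene. Capitals mark CGGAAG or its reverse complement CTTCCG, the core that ETS family factors are known to bind, searched on both strands. A match that overlaps a marked one is left unmarked, as is the CTTCCG that runs into the marked CGGAAG of Snrpe. The first 4 sequences belong to genes higher in axonal RNA and the last to Prpf19, which was lower.
Snrpe, chr13:47609252-47609401, minus strand: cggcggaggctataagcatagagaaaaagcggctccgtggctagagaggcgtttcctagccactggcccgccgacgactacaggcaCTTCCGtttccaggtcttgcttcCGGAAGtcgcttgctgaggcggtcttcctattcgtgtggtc
Snrpg, chr4:120369561-120369710, plus strand: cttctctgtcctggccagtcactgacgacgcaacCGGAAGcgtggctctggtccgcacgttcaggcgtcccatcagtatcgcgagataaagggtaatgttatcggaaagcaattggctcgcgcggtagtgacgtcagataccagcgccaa
Snrpd2, chr1:87926259-87926408, plus strand: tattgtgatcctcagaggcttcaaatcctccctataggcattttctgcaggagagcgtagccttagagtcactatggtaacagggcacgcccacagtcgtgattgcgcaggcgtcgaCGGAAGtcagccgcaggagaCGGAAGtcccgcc
U2af1l4, chr1:94943611-94943760, plus strand: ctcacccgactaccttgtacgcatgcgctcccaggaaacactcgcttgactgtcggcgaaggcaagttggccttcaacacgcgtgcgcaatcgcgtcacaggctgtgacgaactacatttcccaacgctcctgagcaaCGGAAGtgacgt
Prpf19, chr1:216966357-216966506, plus strand: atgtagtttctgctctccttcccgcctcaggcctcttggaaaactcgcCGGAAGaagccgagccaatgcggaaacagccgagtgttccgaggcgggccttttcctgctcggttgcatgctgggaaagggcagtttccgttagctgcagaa

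All 5 windows held at least 1 match, in the gene that was lower as well as in those that were higher. Within 250 bases before the start, 26 of 43 spliceosome genes with a promoter in the table (60.5%) held a match, against 26.1% of the 9929 promoters of genes tested and 13.9% of all 33469 promoters. A match was found in 7 of 9 genes higher in axonal RNA, 2 of 5 that were lower and 17 of 29 that were not called. A match describes letters in a window and does not mark a bound site.

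The first comparison asked which splicing mRNAs differed between axonal and somatic RNA after TMM scaling of the libraries. On that scale a gene called higher need not take a larger share of the counts, as U2af1 below shows. The mRNAs of 5 of 7 Sm proteins were higher in axonal libraries, and those of 5 of 12 Prpf proteins were lower. Over both hairpins, 9 of 44 genes were higher and 5 lower at an adjusted p below 0.05 (edgeR quasi-likelihood test, Benjamini-Hochberg over 12337 genes), where 13.7% of all genes tested were higher and 26.5% lower. These 14 genes make up 20.5% and 11.4% of the 44. As a group the splicing genes took 0.225% and 0.235% of all counts in axonal shPum2 and 0.184% and 0.198% in axonal shControl libraries, against 0.38% and 0.349% in somatic shPum2 and 0.368% and 0.361% in somatic shControl libraries.

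The fitted differences rest on TMM scaling, on which a log2 of 0 is not the median gene. The median of all genes was -0.998 on that scale and that of the 44 genes was -0.12. Scaling by total counts put the medians at -2.47 and -1.53, so the distance between them was 0.88 with TMM and 0.95 with total counts. It was 1.502 with voom, 1.55 without replicate 1 of axonal shControl and 1.59 without replicate 1 of axonal shPum2, and between 0.83 and 1.51 in the other alternatives. With total counts 4 genes were higher and 17 lower, against 6.75% and 43.1% of all genes, and the share of higher calls among all genes called was 13.6%, against 34.1% with TMM. Snrpe, Snrpg, Snrpd2 and U2af1l4 were called higher and Prpf19 lower in the fit and in all 15 alternatives, each library left out in turn included.

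**Figure D1:**
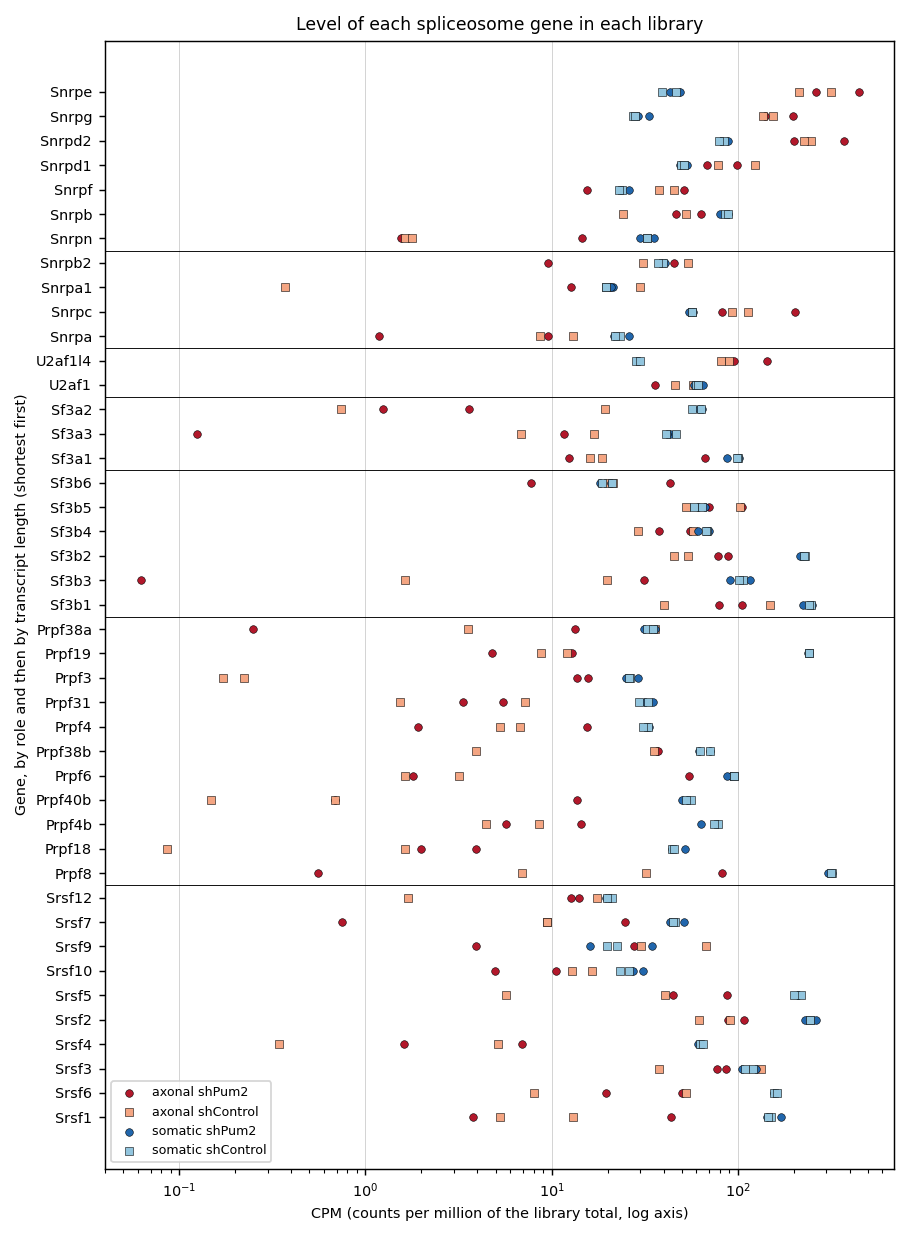
Level of 43 of the 44 splicing genes in each library (x axis, CPM of the library total, log axis; rows, genes grouped by role from Sm core at the top to SR proteins at the bottom and ordered by transcript length within a role). Each gene has 4 axonal points (reds) and 4 somatic points (blues). Somatic points of a gene lie close together, while axonal points of Sf3b3, Prpf8, Prpf38a and Sf3a3 spread over more than 100-fold.

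Among the Sm core proteins, which form the ring around the snRNA, 5 of 7 were higher, 0 were lower and the median log2 difference was 2.45. Snrpe, which encodes SmE, stood at 263 and 446 CPM in axonal shPum2 and 316 and 213 CPM in axonal shControl libraries, against 49.1 and 43.1 CPM in somatic shPum2 and 46.8 and 39.4 CPM in somatic shControl libraries. All 4 axonal values lay far above all 4 somatic values. Its mean CPM was 6.95-fold higher in axonal libraries, and the fitted log2 difference was 4.40 (SE 0.42, adjusted p = 0.0010, edgeR quasi-likelihood with Benjamini-Hochberg). Snrpg, encoding SmG, had 139.9 and 199 CPM in axonal shPum2 and 136 and 155 CPM in axonal shControl libraries, against 33.4 and 29.1 CPM in somatic shPum2 and 27.3 and 28.1 CPM in somatic shControl libraries. It had the most even axonal values of all 44 genes, with a highest value 1.46 times the lowest, and a log2 difference of 4.02 (SE 0.39).

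Snrpd2, encoding SmD2, was at 200.4 and 374 CPM in axonal shPum2 and 248 and 228 CPM in axonal shControl libraries, against 89.2 and 81.6 CPM in somatic shPum2 and 84.1 and 79.3 CPM in somatic shControl libraries. All 4 axonal values lay above all 4 somatic values, and the log2 difference was 3.27 (SE 0.40). Snrpd1, encoding SmD1, ranged from 68.2 to 124 CPM in axonal and from 49.2 to 53.4 CPM in somatic libraries without overlap (log2 2.45, SE 0.41). Snrpf, encoding SmF, had 15.6 and 51.5 CPM in axonal shPum2 and 45.4 and 37.6 CPM in axonal shControl libraries, against 25.9 and 23.6 CPM in somatic shPum2 and 24.0 and 23.0 CPM in somatic shControl libraries. One axonal library lay below the soma and the others above it, so the groups overlapped although the fit called Snrpf higher (log2 2.28, SE 0.63, adjusted p = 0.0283, edgeR quasi-likelihood with Benjamini-Hochberg). Its locus overlaps Ccdc38, and without stated strand the reads of both cannot be told apart.

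The remaining pair of Sm genes encodes SmB and its neuronal relative SmN, which are nearly identical, so reads may be divided between them. Snrpb ranged from 24.3 to 63.7 CPM in axonal and from 80.4 to 88.5 CPM in somatic libraries. Snrpn, which shares its transcript with Snurf, had 1.55 and 14.6 CPM in axonal shPum2 and 1.63 and 1.77 CPM in axonal shControl libraries, against 29.7 and 35.5 CPM in somatic shPum2 and 32.5 and 32.5 CPM in somatic shControl libraries. Both lay below the soma in CPM without overlap, and neither passed the test, with log2 differences of 0.70 (SE 0.45) for Snrpb and -1.45 (SE 0.90) for Snrpn. The Sm list was thus unequal within itself, with its longest transcript, Snrpn at 1468 bases, the lone negative member.

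Levels of different genes were compared in TPM, a share of transcripts that divides by length. Sm core mRNAs summed to 1728 and 2332 TPM in axonal shPum2 and 1663 and 1594 TPM in axonal shControl libraries, against 1207 and 1099 TPM in somatic shPum2 and 1128 and 1066 TPM in somatic shControl libraries. They made up 65.7% to 77.1% of the summed TPM of all 44 genes in axonal and 28.4% to 29.5% in somatic libraries. Snrpe was the highest of the 44 in axonal TPM, followed by Snrpd2, Snrpg, U2af1l4 and Sf3b5, and the axonal mean ± SD of Snrpe was 835 ± 215 TPM, that of Snrpd2 431 ± 92.5 TPM and that of Snrpg 383 ± 53.8 TPM (n = 4). The last 2 do not differ beyond their spread. The order in the soma was Snrpd2 at 312.5 ± 18.3 TPM, Snrpe at 274 ± 28.4 TPM, Srsf5 at 253 ± 10.4 TPM, Srsf2 at 236 ± 14.4 TPM and Prpf19 at 201.5 ± 1.34 TPM (n = 4), where Snrpe and Srsf5 lie within their spread.

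**Figure D2:**
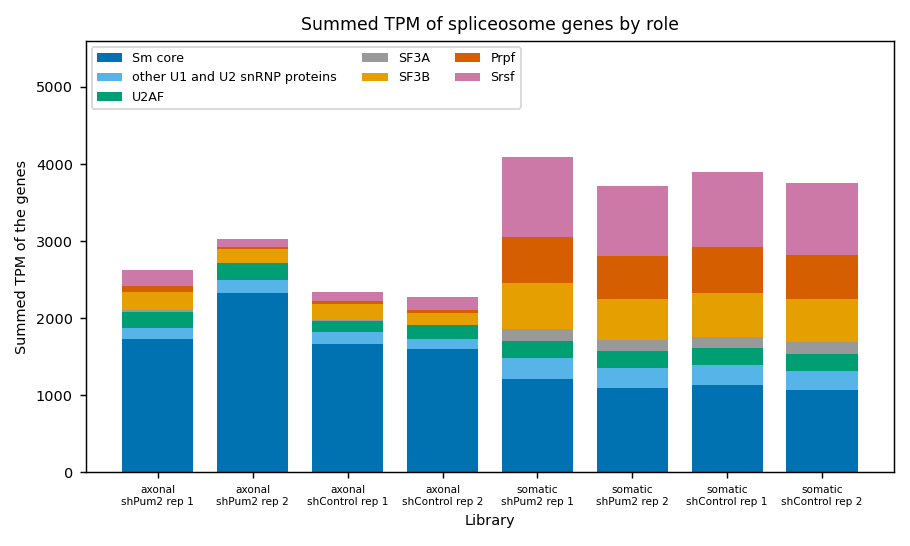
Summed TPM of the 44 splicing genes in each library (y axis), stacked by role, with the 4 axonal libraries left of the 4 somatic ones. The Sm core holds 65.7% to 77.1% of each axonal bar and 28.4% to 29.5% of each somatic bar; Prpf, SR and SF3A mRNAs are thin in the axonal bars.

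Of the other U1 and U2 proteins, 1 of 4 was higher and 0 were lower (median log2 1.23). Snrpc, encoding the U1 protein that contacts the start of an intron, had 82.4 and 203.5 CPM in axonal shPum2 and 93.6 and 114 CPM in axonal shControl libraries, against 57.5 and 54.6 CPM in somatic shPum2 and 56.6 and 57.2 CPM in somatic shControl libraries. Every axonal library was above every somatic one, with a log2 difference of 2.75 (SE 0.49, adjusted p = 0.0054, edgeR quasi-likelihood with Benjamini-Hochberg). Snrpa, encoding the U1 protein that binds a stem-loop of the snRNA, had 9.62 and 1.18 CPM in axonal shPum2 and 13.0 and 8.64 CPM in axonal shControl libraries, against 26.2 and 21.6 CPM in somatic shPum2 and 23.2 and 22.0 CPM in somatic shControl libraries. Its axonal CPM was lower throughout, and it was not called (log2 -0.16, SE 0.73). Snrpa1 and Snrpb2, which encode a pair of proteins that bind U2 snRNA together, spread over 0.37 to 29.8 CPM and 9.55 to 53.9 CPM in axonal libraries, across their somatic ranges. Snrpa1 was called lower without replicate 1 of axonal shControl (log2 -1.45) and higher without its replicate 2 (log2 1.66).

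Both U2AF small subunits were called higher, but their values were of different kinds. U2af1l4, a paralog of the subunit that reads the end of the intron, had 95.7 and 143 CPM in axonal shPum2 and 81.2 and 90.3 CPM in axonal shControl libraries, against 28.7 and 29.3 CPM in somatic shPum2 and 28.3 and 30.0 CPM in somatic shControl libraries. The groups were well apart, with a log2 difference of 3.40 (SE 0.41, adjusted p = 0.0021, edgeR quasi-likelihood with Benjamini-Hochberg). Its locus overlaps Igflr1, so its reads are uncertain in the absence of stated strand. U2af1, the canonical subunit, had 60.9 and 35.9 CPM in axonal shPum2 and 46.0 and 57.3 CPM in axonal shControl libraries, against 65.2 and 58.4 CPM in somatic shPum2 and 60.0 and 61.2 CPM in somatic shControl libraries. Those groups overlap at the top of the axonal range, and the log2 difference of 1.24 (SE 0.36) turned to -0.29 with total counts. The gene of the large U2AF subunit was not analysed here.

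The SF3A and SF3B subunits form the protein part of U2 that holds the branch point. Of the 3 SF3A genes 0 were called with edgeR or DESeq2, and all 3 were negative (median -0.97). Of all genes tested, edgeR called 13.7% higher and 26.5% lower, and DESeq2 called 2473 of 12337 higher and 3812 lower. Sf3a2 had 3.61 and 1.24 CPM in axonal shPum2 and 19.4 and 0.739 CPM in axonal shControl libraries, against 64.2 and 62.3 CPM in somatic shPum2 and 56.9 and 63.5 CPM in somatic shControl libraries. Each axonal value was below each somatic one, and the axonal values differed 26.3-fold among themselves (log2 -2.14, SE 0.99).

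Among 6 SF3B genes, 1 was higher and 0 lower (median 0.60). Sf3b5, a small subunit, had 70.3 and 105.9 CPM in axonal shPum2 and 103 and 52.6 CPM in axonal shControl libraries, against 66.7 and 61.3 CPM in somatic shPum2 and 64.3 and 58.2 CPM in somatic shControl libraries. Replicate 2 of axonal shControl lay under the soma and the others over it (log2 2.01, SE 0.45, adjusted p = 0.0124, edgeR quasi-likelihood with Benjamini-Hochberg). Sf3b3 had 31.5 and 0.0620 CPM in axonal shPum2 and 19.8 and 1.63 CPM in axonal shControl libraries, against 117 and 91.4 CPM in somatic shPum2 and 107 and 101.5 CPM in somatic shControl libraries. This was the widest axonal spread of the 44, 508-fold between libraries of the same compartment (log2 -1.59, SE 1.38). Sf3b1, the large scaffold that closes around the branch point, was at 40.1 to 150.2 CPM in axonal and 225 to 251 CPM in somatic libraries. Its log2 difference of 0.22 (SE 0.48) was not called with TMM, and with total counts it was -1.36 (adjusted p = 0.0448, edgeR quasi-likelihood with Benjamini-Hochberg).

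The Prpf genes held all 5 genes that were lower, of 12, and 0 were higher (median log2 -1.88). Prpf19, the ubiquitin ligase of the complex that bears its name, had 12.9 and 4.77 CPM in axonal shPum2 and 8.81 and 12.04 CPM in axonal shControl libraries, against 238 and 243 CPM in somatic shPum2 and 240.5 and 243 CPM in somatic shControl libraries. It was low in all 4 axonal libraries, its mean CPM was 25.1-fold higher in somatic ones, and the log2 difference was -3.16 (SE 0.39, adjusted p = 0.0022, edgeR quasi-likelihood with Benjamini-Hochberg). Prpf40b, related to a U1-associated yeast protein, had 13.7 and 0.682 CPM in axonal shPum2 and 0.684 and 0.148 CPM in axonal shControl libraries, against 53.4 and 50.5 CPM in somatic shPum2 and 56.5 and 52.9 CPM in somatic shControl libraries. A single axonal library held most of its counts (log2 -3.52, SE 1.02), and its locus overlaps Mcrs1 and Fam186b. Prpf18, a factor of the second catalytic step, had at most 3.95 CPM in axonal libraries and 44.4 to 52.3 CPM in somatic ones (log2 -3.36, SE 0.95). Prpf4b, a protein kinase of the spliceosome, had 4.43 to 14.3 CPM and 63.7 to 78.2 CPM (log2 -1.68, SE 0.54).

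Prpf3, a protein of the U4/U6 particle, was also lower (log2 -2.37, SE 0.64), with 13.7 and 15.7 CPM in axonal shPum2 and 0.171 and 0.222 CPM in axonal shControl libraries, against 29.1 and 25.1 CPM in somatic shPum2 and 26.3 and 26.1 CPM in somatic shControl libraries. The axonal libraries fell into 2 pairs by hairpin. The highest Prpf log2 difference was that of Prpf38b, at 0.26 (SE 0.70), with 36.9 and 37.1 CPM in axonal shPum2 and 3.94 and 35.7 CPM in axonal shControl libraries, against 71.1 and 62.1 CPM in somatic shPum2 and 62.8 and 70.9 CPM in somatic shControl libraries. Prpf8, the scaffold at the heart of U5, had 82.5 and 0.558 CPM in axonal shPum2 and 32.1 and 6.95 CPM in axonal shControl libraries, against 320.5 and 306 CPM in somatic shPum2 and 322.5 and 318 CPM in somatic shControl libraries. Its axonal values were all lower and far apart, and the gene was not called (log2 -2.07, SE 1.15). Replicate 1 of axonal shPum2, which also had the highest sum of macrophage markers, held the highest axonal value of 7 of 12 Prpf genes and the lowest of 0. Their part in the Prpf values was not tested. The same library held the highest value of 17 of the 44 genes (38.6%), against 41.4% of all genes tested.

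Of the 10 measured SR protein genes 0 were called with edgeR (median log2 -0.31, 5 positive). Of all genes tested, 13.7% were higher and 26.5% lower with edgeR. DESeq2 called 2 SR genes higher and 2 lower, where it called 2473 of all 12337 genes higher and 3812 lower. Srsf5 had 88.2 and 45.1 CPM in axonal shPum2 and 40.6 and 5.69 CPM in axonal shControl libraries, against 211 and 211 CPM in somatic shPum2 and 220.1 and 201 CPM in somatic shControl libraries. Srsf4 had 6.96 and 1.61 CPM in axonal shPum2 and 0.342 and 5.17 CPM in axonal shControl libraries, against 64.0 and 61.2 CPM in somatic shPum2 and 62.7 and 65.3 CPM in somatic shControl libraries. Both were lower in every axonal library, with log2 differences of -0.89 (SE 0.61) and -2.75 (SE 0.93, adjusted p = 0.0543, edgeR quasi-likelihood with Benjamini-Hochberg). Srsf9 had 27.8 and 3.90 CPM in axonal shPum2 and 30.3 and 67.7 CPM in axonal shControl libraries, against 34.6 and 16.1 CPM in somatic shPum2 and 22.5 and 19.8 CPM in somatic shControl libraries. Its groups overlapped (log2 1.71, SE 0.68), and its somatic values, 2.14-fold apart, were the least even of the 44. Srsf2 and Srsf3 kept high axonal levels, at 61.8 to 109 CPM and 38.0 to 134 CPM, against 231 to 265 CPM and 105.5 to 126 CPM in the soma. With total counts Srsf2 was lower (log2 -1.51, adjusted p = 0.0048, edgeR quasi-likelihood with Benjamini-Hochberg), where the TMM value was 0.05 (SE 0.28).

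Axonal libraries differed far more among themselves than somatic ones. The highest axonal CPM of a gene was 6.11 times its lowest at the median, over 10 times for 18 genes and over 100 times for 4, whereas the median somatic ratio was 1.14. In CPM, all 4 axonal libraries lay above all 4 somatic ones for 6 genes, Snrpe, Snrpg, Snrpd2, Snrpd1, Snrpc and U2af1l4, and below them for 28. The background over all genes tested was 7.73% above and 58.4% below, beside 13.6% and 63.6% of the 44. Leaving out replicate 1 or 2 of somatic shPum2 or of somatic shControl left 6 genes higher and Prpf19 as the 1 gene lower in each case. Genes lower numbered 9 and 8 without replicate 1 or 2 of axonal shControl, 12 without replicate 1 of axonal shPum2 and 7 without its replicate 2. Genes lower among all those tested numbered 2192 to 2339 without a somatic library and 3955 to 4723 without an axonal one, against 3272 with all libraries.

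The order of the differences followed transcript length, which the choice of genes by symbol did not use. Of 17 genes with transcripts of up to 1200 bases, 15 were positive, 9 higher and 0 lower, with a median log2 of 1.71. All genes of that length had 43.4% higher, 13.4% lower and a median of 1.67 (1840 genes). Of 27 genes with longer transcripts, 6 were positive, 0 higher and 5 lower, with a median of -0.97, where all genes of that length had 8.52% higher, 28.8% lower and a median of -1.36 (10497 genes). Snrpe at 429 bases and Snrpg at 462 bases are the shortest of the 44. Spearman's rho between length and log2 difference was -0.753 over the 44 genes and -0.357 over 12337 genes, as a description across genes that share libraries and are not independent.

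Against all genes of the same length class, 27 of the 44 lay above the class median and 17 below, 8 lay above its 75th percentile and 0 below its 25th. The medians of all genes ran from 3.61 for transcripts of up to 600 bases to -3.00 for those over 5000 bases. Short splicing genes also had the more even axonal values, with a median ratio of highest to lowest library of 2.62, against 9.43 for the longer ones. The library kit differed with compartment, and its part in the relation with length was not tested.

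**Figure D3:**
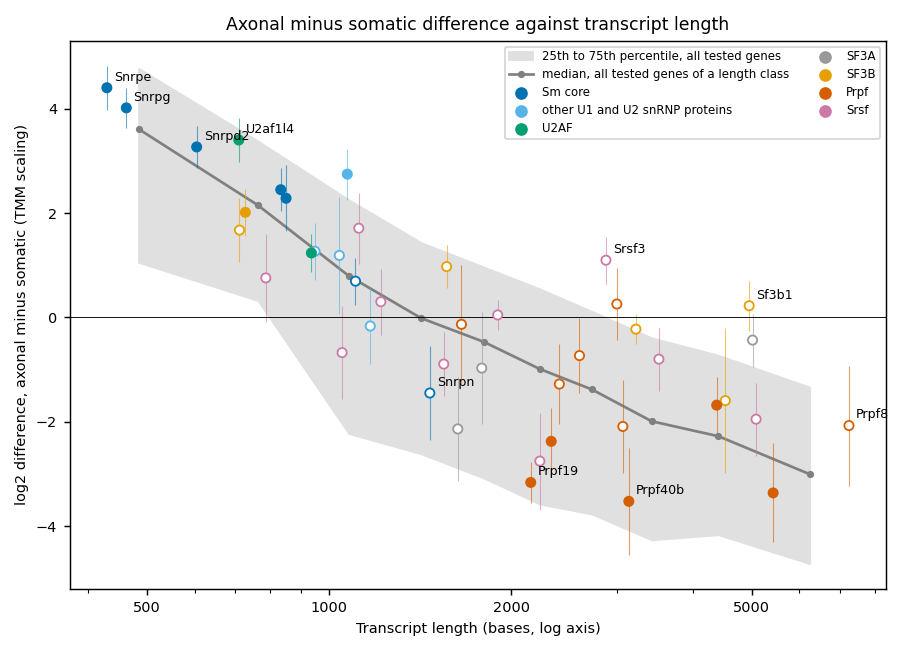
Axonal minus somatic log2 difference (y axis, TMM scaling, both hairpins) of 43 of the 44 splicing genes against transcript length (x axis, bases, log axis), coloured by role; filled points passed an adjusted p of 0.05, bars are SE, and the grey line and band give the median and the 25th to 75th percentile of all 12337 genes by length class. The 9 filled points above 0 have transcripts of up to 1200 bases and the 5 below 0 have longer ones. Within those 5 the differences do not follow the slope of the grey line. Prpf19 (2156 bases) is at -3.16 and below the line, and Prpf4b (4378 bases) is at -1.68 and above it.

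Genes with related roles were set beside them in the same fit. Of 13 LSm genes, which encode the relatives of Sm proteins on U6 snRNA and in mRNA decay, 9 were higher and 1 lower (median 3.13), among them Lsm7 at 206 to 342 CPM in axonal and 40.7 to 45.5 CPM in somatic libraries (log2 4.36, SE 0.40). Naa38, listed with them, had a log2 difference of 4.71, Lsm5 4.35 and Lsm3 3.70. Of 16 snRNP proteins with other symbols, 2 were higher and 0 lower (median -0.07). These were the short U5 protein gene Txnl4a (log2 3.62, SE 0.42) and Snrnp27 (log2 2.03, SE 0.48). The SMN complex and assembly list, which includes the factors that load Sm rings, had 1 of 16 higher and 5 lower (median -0.48), beside 13.7% and 26.5% and a median of -0.998 for all genes. Gemin4 was at 0 to 0.372 CPM in axonal and 14.8 to 22.4 CPM in somatic libraries (log2 -7.76, SE 1.29), and Coil, encoding the Cajal body protein coilin, at 0 to 0.77 CPM and 15.8 to 17.6 CPM (log2 -5.46, SE 1.19). Tgs1 and Ddx20 had log2 differences of -4.74 and -4.33.

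Of 22 Prp19 complex and catalytic step factors, 2 were higher and 3 lower (median -0.34). Cwc15, a component of that complex, had 1540 and 2623 CPM in axonal shPum2 and 4782 and 2783 CPM in axonal shControl libraries, against 72.1 and 73.8 CPM in somatic shPum2 and 71.0 and 74.7 CPM in somatic shControl libraries (log2 6.88, SE 0.46). No axonal value came near a somatic one. Neuronal and tissue-specific splicing regulators had 0 of 27 higher and 11 lower (median -2.17), with Celf3 at -6.27, Celf5 at -4.82, Elavl2 at -4.31 and Nova1 at -6.45. SR-related proteins and SR kinases had 1 of 22 higher and 5 lower (median -1.09), including Srrm2 at -2.20. Exon junction complex and export genes had 6 of 21 higher and 1 lower (median 0.36), and hnRNP genes 3 of 21 higher and 2 lower (median -0.44). Outside splicing, 7 of 11 RNA polymerase II subunits were higher and 0 lower (median 2.47), Mediator subunits had 7 of 25 higher and 4 lower (median -0.30), and large-subunit ribosomal proteins had 28 of 31 higher and 0 lower (median 3.08).

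The compartment difference was then taken within each hairpin. With shPum2, 6 of 44 genes were higher and 1 lower, against a background of 8.45% and 16.2%. With shControl, 6 were higher and 3 lower, against 9.41% and 18.5%. Snrpe, Snrpg, Snrpd2, Snrpd1, Snrpc and U2af1l4 were the genes higher under both hairpins, and Prpf19 was lower under both. Snrpe had a log2 difference of 4.59 (SE 0.60) with shPum2 and 4.21 (SE 0.59) with shControl, Snrpg 4.06 (SE 0.55) and 3.97 (SE 0.54), and Prpf19 -3.36 (SE 0.56) and -2.96 (SE 0.55). These fits share an estimate of the spread and no library. Without either library of somatic shPum2, 0 genes of all those tested were called with shPum2, splicing genes included, and the same held with shControl without either library of somatic shControl. The share of all genes at an unadjusted p under 0.05 was not computed for these fits, so no count at that threshold is given. Without either somatic library of the other hairpin, Snrpe and Snrpg were the 2 splicing genes called under each hairpin, among 375 and 386 genes called with shPum2 and 514 and 498 with shControl.

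The difference between the hairpins was tested directly, as the axonal change with the hairpin minus the somatic one. No splicing gene passed (0 of 44, background 0.0% in either direction, edgeR quasi-likelihood with Benjamini-Hochberg), and 1 had an unadjusted p below 0.05, where 7.81% of all genes did. This gene was Prpf3, with an interaction log2 of 6.16 (SE 1.31, adjusted p = 0.329, edgeR quasi-likelihood with Benjamini-Hochberg). That SE uses a spread shared with the even somatic libraries, and in the axonal libraries alone the SE of its hairpin difference was 2.72. DESeq2 called it (adjusted p = 1.11e-05, DESeq2 with Benjamini-Hochberg) among 606 of 12337 genes, and the adjusted p of the other alternatives ranged from 0.050 to 1.0. Without replicate 1 of axonal shControl, 2 other genes, Snrpa1 and Srsf5, were called among 713 of 12696. Prpf3 had an axonal minus somatic log2 of -5.46 (SE 1.04) with shControl and 0.71 with shPum2.

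**Figure D4:**
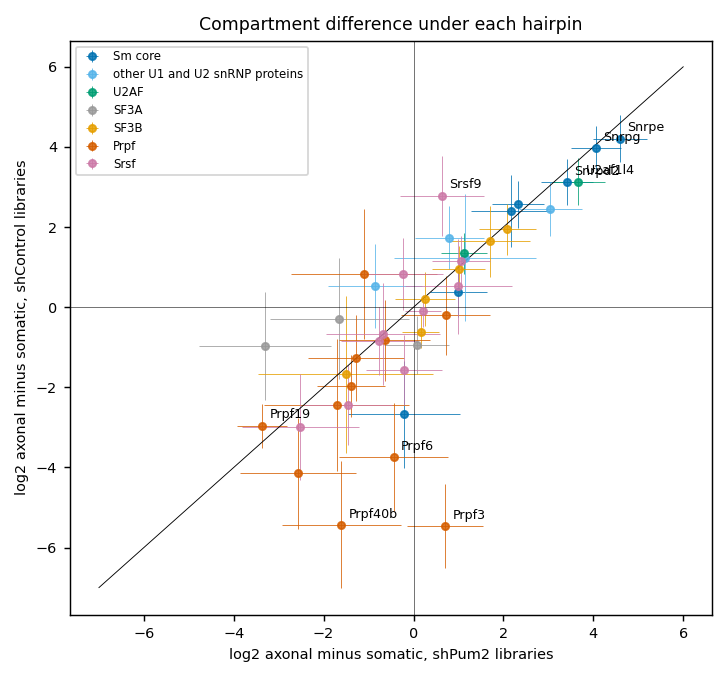
Axonal minus somatic log2 difference of 43 of the 44 splicing genes in shPum2 libraries (x axis) and in shControl libraries (y axis), with SE bars, coloured by role; the diagonal marks equal differences. Snrpe, Snrpg, Snrpd2 and U2af1l4 lie at the upper right near the diagonal, and Prpf3 lies farthest from it, with an interaction adjusted p of 0.329.

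Within somatic RNA, where the knockdown of Pum2 was measured, splicing genes showed no call. Of 44 genes, 0 were higher and 0 lower (background 0.0% and 0.0081%), and 0 had an unadjusted p below 0.05, where 0.599% of all genes did (edgeR quasi-likelihood test). Log2 differences ran from -0.13 for Prpf4b to 0.24 for Srsf9, with a median of -0.0027. DESeq2 called 0 of the splicing genes, where it called 2 of all 12346 genes. The smallest p belonged to Srsf10, an SR protein that can repress splicing, with 31.1 and 27.3 CPM in somatic shPum2 and 25.9 and 23.5 CPM in somatic shControl libraries. Both shPum2 values were above both shControl values, with a log2 difference of 0.23 (SE 0.12, adjusted p = 0.9997, edgeR quasi-likelihood with Benjamini-Hochberg). Snrpg, at 33.4 and 29.1 CPM with shPum2 and 27.3 and 28.1 CPM with shControl, had a log2 difference of 0.16 (SE 0.11), and Prpf6, which bridges U5 and U4/U6, one of -0.10 (SE 0.07) from 92.5 and 87.2 CPM with shPum2 and 95.9 and 95.1 CPM with shControl. In CPM the groups did not overlap for 3 genes that were higher and 2 that were lower, against 11.5% and 13.0% of all genes.

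In axonal RNA the hairpins could be compared for 43 genes, since Prpf40b did not pass the filter on low counts, and 0 were called (background 0.0% in either direction) and 0 had an unadjusted p below 0.05, where 3.02% of all genes did (edgeR quasi-likelihood test). DESeq2 called 0 of the splicing genes as well, where it called 82 of all 8517 genes higher and 75 lower. The log2 differences ran from -2.30 for Sf3a2 to 6.09 for Prpf3. Prpf3 had 160 and 254 counts with shPum2, against 2 and 3 counts with shControl. The groups lay far apart (log2 6.09, SE 2.72, unadjusted p = 0.054 and adjusted p = 0.9998, edgeR quasi-likelihood with Benjamini-Hochberg). DESeq2 gave Prpf3 an adjusted p of 0.0687 here, and the range over the alternatives reached 1.0. In the authors' deposited axonal table Prpf3 has a log2 fold change of 5.36 with an adjusted p of 0.0226, the smallest of the list there. How many of all genes pass 0.05 in the authors' deposited tables was not counted.

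Axonal Prpf6 was at 54.97 and 1.80 CPM with shPum2, against 1.63 and 3.18 CPM with shControl. A single library set it apart, and its log2 difference of 3.21 (SE 2.30) became -0.25 without replicate 1 of axonal shPum2. Srsf9 had a log2 difference of -1.91 (SE 1.504) in axonal RNA and of 0.24 (SE 0.36) in somatic RNA, with overlap in the soma. Without overlap in CPM, 6 genes were higher and 2 lower with shPum2 in axonal RNA, where 15.8% and 12.0% of all genes were. For Srsf11, the authors' deposited tables give a mean normalised signal of 535.5 in the axonal and 2003 in the somatic comparison. Its log2 fold changes there are -0.57 (SE 1.25) and 0.06 (SE 0.10), each with an adjusted p of 0.9999 in the authors' deposited tables.

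**Figure D5:**
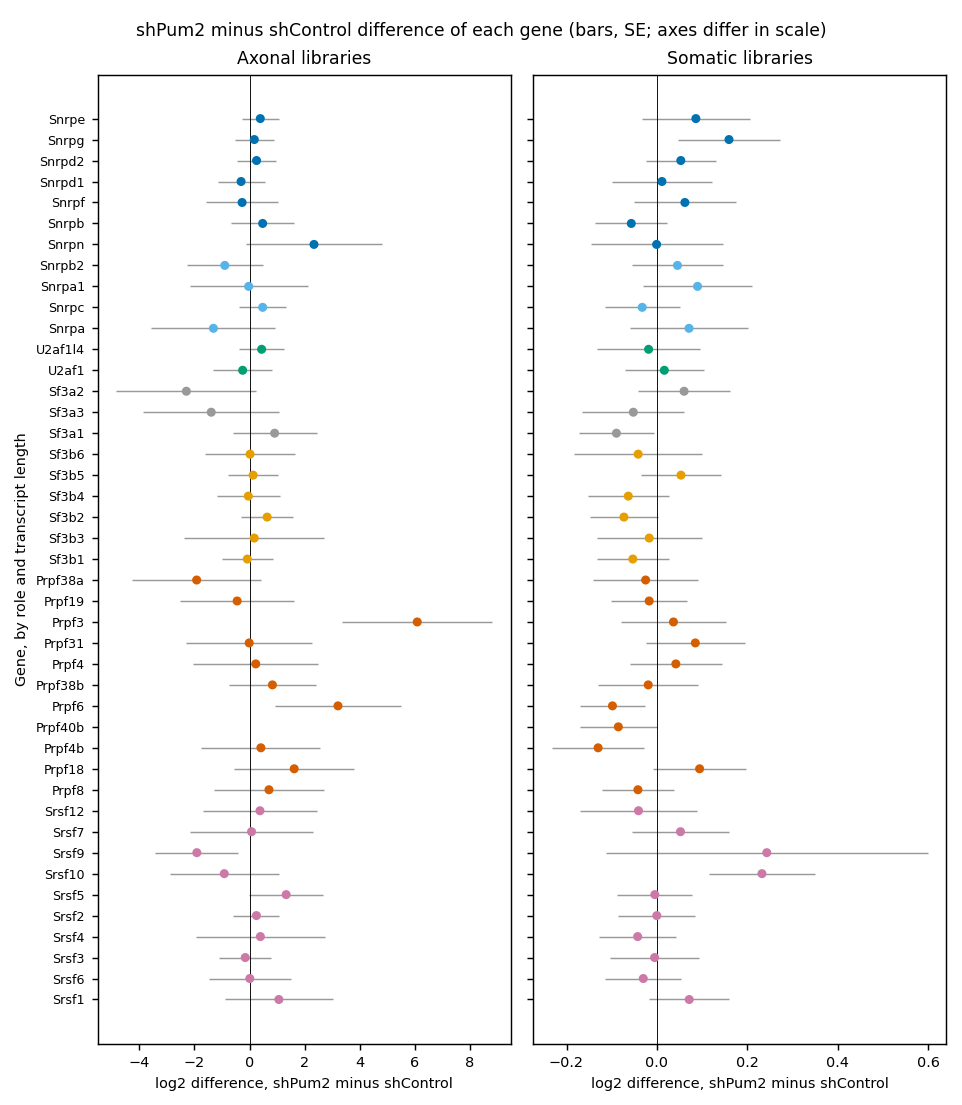
Log2 difference of single splicing genes, shPum2 minus shControl (x axes, bars are SE), in the axonal libraries (left) and in the somatic libraries (right, 43 genes), with genes grouped by role on the y axis and coloured as in the other plots. The axes differ in scale: axonal values run from -2.30 to 6.09, with Prpf3 farthest to the right, and somatic values from -0.13 to 0.24, and no gene passed an adjusted p of 0.05.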

How the data were processed

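RNA-seq libraries of axonal and somatic compartments with 2 hairpins were used, 2 libraries a group. The authors' deposited files, per their headers, give kallisto estimated counts and TPM per RefSeq transcript with its length in bases. The submitters' processing notes name the build Rnor_6.0, kallisto and DESeq2; their versions are not given in the sources used here. The authors' deposited comparison tables give a mean normalised signal, log2 fold changes with standard errors, p-values, adjusted p-values and the test's score for 17320 genes, per the file headers.

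Of 18321 transcripts, 17367 (94.8%) were matched to symbols through a RefSeq table (GRCr8, names alone); the others, with 2.02% to 3.62% of counts, kept their identifiers. Summing over transcripts gave estimated counts of 17379 genes, which were rounded. Among the 44 splicing genes, 1 (Srsf5) has more than 1 transcript. CPM is over the library total. Strand of counting is not stated, which also bears on overlapping loci not named above. Snrpe, Snrpg, Snrpc, Snrpd1, Prpf18 and Sf3b3 overlap loci not listed as protein-coding. Protein-coding overlaps are Plekhj1 for Sf3a2, Actmap for Snrpa, Ccdc157 for Sf3a1, Gal3st3 for Sf3b2, Fkbp1b for Sf3b6 and Vezf1 for Srsf1. The values of 1 gene are not reported here singly; counts and sums over the list include it.

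Tests used edgeR 4.0.16 in R 4.3.3: the quasi-likelihood test, TMM scaling and filterByExpr, with p-values adjusted by Benjamini-Hochberg over all genes tested and a threshold of 0.05. All 8 libraries gave the compartment and interaction comparisons, and the 4 libraries of a compartment gave each knockdown comparison. The fit of all 8 uses 1 estimate of the spread per gene for both compartments, so its SEs and p-values can understate the axonal spread. TMM factors were 0.478 to 0.754 in axonal and 1.66 to 1.80 in somatic libraries. The biological coefficient of variation was 124.6% in the axonal fit, 23.5% in the somatic fit and 91.1% in the fit of all 8 libraries. Count totals limit the precision of low genes; no interval is given. The code was tested on simulated data.

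The genes, their roles and the other lists were chosen with earlier results of these data known. Any splicing gene could be named; values in every library were required, per role, for the highest mean TPM and the largest positive and negative difference, and for the 3 smallest p per knockdown comparison (up to 4 genes per other list). Alternatives were RLE and total-count scaling, no filter, DESeq2 1.42.0, limma 3.58.1 voom with and without compartment weights, a replicate block, other library sets and each library left out.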

Additional observations from a re-analysis of the deposited data

How the results depend on the processing

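The 5 calls of the compartment comparison over both hairpins, for Snrpe, Snrpg, Snrpd2, U2af1l4 and Prpf19, held in all 15 alternatives. Counts of splicing genes that moved by over 1.5 times follow as higher and lower. Counts over all 12337 genes stand in brackets. Over both hairpins, total counts gave 4 and 17 (833 and 5312) and DESeq2 14 and 8 (2473 and 3812). Lower were 3 with RLE factors (3099), 3 with the replicate block (3017) and 8 with voom weighted by compartment (3534). With shPum2, DESeq2 gave 10 and 2 (1797 and 2567), total counts 4 lower (3015) and weighted voom 0 lower (1329). The 4 libraries of that hairpin gave 3 higher (706 of 12077 genes). With shControl, total counts gave 3 and 11 (609 and 3606), DESeq2 12 and 6 (2091 and 2981), and voom 5 lower (2163). DESeq2 called 1 gene in the interaction (606). With each library left out, over both hairpins 6 to 12 were higher and 1 to 12 lower, with shPum2 0 to 8 and 0 to 9, with shControl 0 to 12 and 0 to 7, and in the interaction 0 to 2 and 0 to 0. Both knockdown comparisons kept 0 splicing genes called under every alternative run. With DESeq2, 157 of all 8517 genes were called in axonal RNA and 2 of 12346 in somatic RNA.

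Directions turned for genes not called with TMM and for U2af1. Total counts gave log2 -1.30 for Prpf38b, -1.36 for Sf3b1, -0.57 for Sf3b4, -0.36 for Snrpa1, -0.89 for Snrpb, -0.20 for Snrpb2, -1.33 for Srsf10, -0.83 for Srsf12, -1.51 for Srsf2, -0.46 for Srsf3 and -0.29 for U2af1. RLE factors gave 0.0027 for Prpf38a, 0.080 for Sf3b2 and 0.031 for Snrpa, and DESeq2 0.0025, 0.0798 and 0.035 for the same genes. Prpf38b was at -0.093 with voom and at -0.087 with weighted voom. With each library left out, Prpf38a ranged from -2.10 to 0.33, Prpf38b from -0.89 to 0.76, Sf3b1 from -0.39 to 0.64, Snrpa from -0.87 to 0.20, Snrpa1 from -1.45 to 1.66, Srsf10 from -0.26 to 0.72, Srsf12 from -0.44 to 1.18, Srsf2 from -0.11 to 0.25 and Prpf6 in the axonal knockdown from -0.25 to 4.11. The causes were not tested.

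The replicate numbers were checked for pairing: deviations of same-numbered libraries correlated at 0.652 between the somatic groups and at 0.047 to 0.0886 between other groups. Same-numbered somatic libraries thus deviated together (fibroblast markers summed to 8990 and 3526 CPM in replicate 1 and 1795 and 1815 CPM in replicate 2 of somatic shPum2 and shControl), and the labels name no shared source. With the block, 7 genes were higher and 3 lower over both hairpins, and 0 were called in the interaction and both knockdown comparisons. Low axonal counts (1 count of Prpf18 in replicate 1 of axonal shControl) limit what the axonal comparison can show.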
